A study of Mus musculus with 18 samples.

Results

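The genes described here are transcriptional targets of the tumour suppressor p53, together with Trp53, the gene that encodes mouse p53. The list holds Cdkn1a, Mdm2, Ccng1, Bax, Phlda3, Zmat3, Trp53inp1, Sesn2, Bbc3 and Trp53. Of these 10 genes, 9 were in the deposited table of 10897 genes, and Zmat3 was not analysed here. No filter on low values removed any of the 9. Expression was measured by RNA sequencing in 18 libraries of mouse colorectal tissue, 6 in each of 3 groups.

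Tissue came from male C57BL/6J mice 10 weeks of age. The groups are named GF-AOMS, GF-AOM and Control, where AOM is azoxymethane, an alkylating carcinogen that induces colon tumours, GF stands for germ-free and S for cigarette smoke. Sample characteristics give GF-AOMS as germ-free mice with AOM-induced cancer and smoke exposure, GF-AOM as germ-free mice with AOM-induced cancer, and Control as wild-type specific-pathogen-free (SPF) mice that also had AOM-induced cancer. The treatment protocol differs, since it calls Control normal and mentions no germ-free state, and the growth protocol houses the mice in an SPF facility. Smoke separates GF-AOMS from GF-AOM in either description, whereas the comparisons with Control carry no single meaning. The treatment protocol gives 6 mice per group, as many as there are libraries. The labels do not state whether tumour or surrounding tissue was taken, and do not tie each library to its own mouse, so the spread behind each p-value is that between libraries and may be technical.

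p53 is a transcription factor kept at low protein levels by Mdm2, the ubiquitin ligase that marks it for degradation and is itself a p53 target. DNA damage, such as that left by alkylating agents, stabilises the p53 protein, which then raises transcription of genes for cell cycle arrest, such as Cdkn1a, and for apoptosis, such as Bax and Bbc3. In the intestine p53 is known for controlling the response of crypt cells to genotoxic injury. Since p53 is regulated mainly as a protein, its activity is usually read from the transcripts of its targets rather than from Trp53 RNA.

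The p53 protein binds a decamer consensus, usually present as paired decamers. RefSeq start sites (build GRCm38.p6) gave 11 windows of 250 bases upstream of a start for 8 of the 9 genes. The exact decamer consensus, whose reverse complement is the same motif, occurred in 5 of these 11 windows, 1 window each of Cdkn1a, Mdm2, Ccng1, Bax and Trp53, against 7.13% of all 32851 windows and 6.1% of the 9961 windows of genes in the table. Paired decamers without a spacer and with at most 1 mismatch in 20 bases occurred in the windows of Cdkn1a and Ccng1, against 0.0761% of all windows. These are matches of letters and not shown to be sites. These stretches are shown because they hold the matches for the arrest genes, the feedback regulator and the apoptosis effector whose levels follow, with the matches in capitals and each stretch read 5′ to 3′ on the strand of its gene.
Cdkn1a, chr17:29090897-29090956, plus strand: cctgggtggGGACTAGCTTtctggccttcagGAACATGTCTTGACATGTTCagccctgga
Ccng1, chr11:40755442-40755501, minus strand: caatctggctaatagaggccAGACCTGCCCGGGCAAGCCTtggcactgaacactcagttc
Mdm2, chr10:117710910-117710969, minus strand: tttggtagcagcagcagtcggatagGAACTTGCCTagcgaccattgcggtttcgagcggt
Bax, chr7:45467065-45467124, minus strand: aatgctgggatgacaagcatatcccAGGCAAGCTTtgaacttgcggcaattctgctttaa
The run of 20 capitals in Cdkn1a ends 31 bases before the upstream of its RefSeq starts and that in Ccng1 ends 175 bases before its start. The decamer of Mdm2 lies 176 bases and that of Bax 191 bases before the start. The windows of Phlda3, Sesn2 and Bbc3 held no such letters.

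Each library held between 48953539 and 79233656 counts. Some stood apart. Hoxa13, a marker of the distal colon, separated Control replicates 3 to 6, at 0 to 3.05 CPM (counts scaled to a common library size after TMM scaling, a correction for library composition), from the other 14 libraries, which ranged between 24.7 and 53.5 CPM. Libraries also differed in how counts depended on gene length. The length slope, the slope of log2 CPM (minus the mean of the 18 libraries) on log2 gene length, ran from -0.31 to 0.084 in GF-AOMS, from -0.19 to 0.091 in GF-AOM and from -0.093 to 0.19 in Control, and 82 ribosomal protein genes took from 7.4% to 26.7%, 7.95% to 19.6% and 5.33% to 15.7% of counts in the same groups. The TMM factor was under 0.9 in 5 libraries, GF-AOMS replicates 1 and 2, GF-AOM replicates 3 and 6 and Control replicate 2. Of 14 colon epithelium markers 13 were measured, none at 0 in any library, and their summed level was 15064 to 16717 CPM in GF-AOMS, 13056 to 18248 CPM in GF-AOM and 16656 to 21451 CPM in Control. In bulk tissue, fewer cells of a type and less RNA per cell cannot be told apart.

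Compared per length, the 9 genes fell by their means into a high, a middle and a low set. Levels are given as FPKM, the deposited fragments per kilobase of gene, scaled to depth. Cdkn1a, which encodes the cyclin-dependent kinase inhibitor p21, averaged 38.9 FPKM over the 18 libraries (SD 14.6, range 18.3 to 71.9). Ccng1, for cyclin G1, averaged 32.3 FPKM (SD 3.19, range 27 to 39.6), and Bax 32.1 FPKM (SD 4.29, range 23.9 to 41.4). The ranges of these 3 genes overlapped, so their order was not resolved beyond the spread. In the middle set, Trp53 averaged 9.88 FPKM (SD 3.45), Phlda3 9.77 FPKM (SD 2.09), Trp53inp1 9.31 FPKM (SD 3.17) and Mdm2 6.75 FPKM (SD 1.01), again with overlapping ranges between 4.26 and 17.8 FPKM. Sesn2 at 2.87 FPKM (SD 1.16) and Bbc3 at 2.86 FPKM (SD 0.744) were lowest. The lowest library for Ccng1 or Bax, at 23.9 FPKM, lay above the highest of the middle set. Sesn2 reached 5.31 FPKM and Bbc3 4.74 FPKM, so both overlapped Mdm2 (from 4.26 FPKM) and Trp53 (from 4.4 FPKM).

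**Figure D1:**
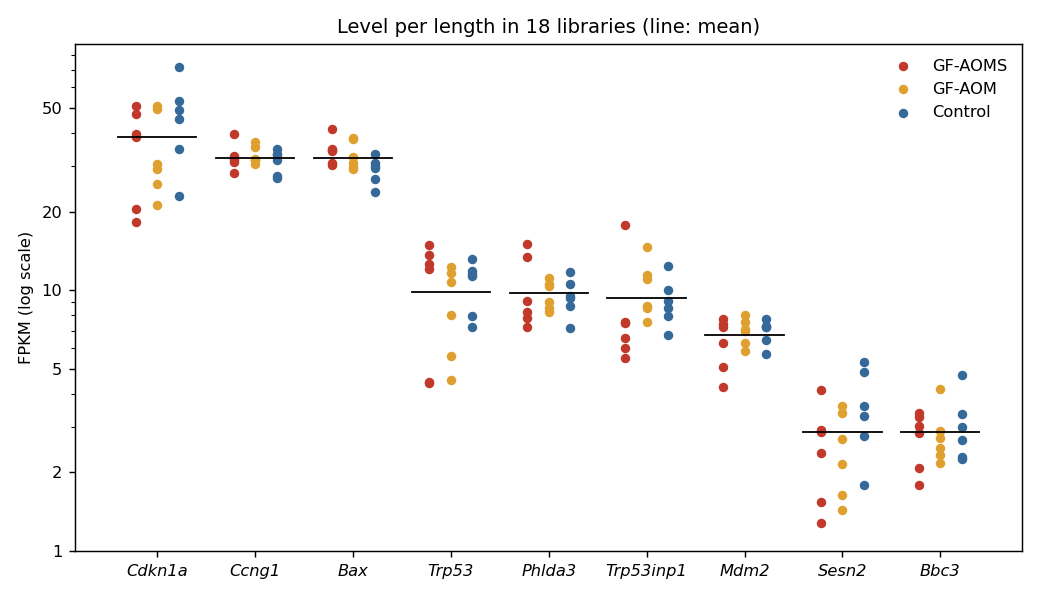
Level per length (FPKM, log axis) of the 9 genes, ordered by their mean over 18 libraries (black line), with 1 point per library coloured by group. Cdkn1a, Ccng1 and Bax average 38.9, 32.3 and 32.1 FPKM, and Sesn2 and Bbc3 lie lowest at 2.87 and 2.86 FPKM.

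None of the p53 target genes passed the test in any comparison. All 18 libraries were fitted together on the counts with edgeR's quasi-likelihood test, with Benjamini-Hochberg adjustment over all 10897 genes and an adjusted p under 0.05 counted as a call. In GF-AOMS against GF-AOM, called with smoke from here on, 0 of 9 genes were called, where 0% of all genes were. In GF-AOM against Control 0 of 9 were called, against 0.00918% of all genes, and in GF-AOMS against Control 0 of 9, against 0.734%. DESeq2 on counts and limma on log2 FPKM also called 0 in each comparison. Before adjustment, p was under 0.05 for 1 of 9 genes with smoke (1.09% of all genes), 0 of 9 in GF-AOM against Control (15.7%) and 0 of 9 in GF-AOMS against Control (16.2%). Groups without overlap were found for 0 of 9 genes in each comparison, against 0.0642%, 0.762% and 0.798% of all genes. The median log2 difference of the 9 genes was -0.015, 0.097 and -0.081 in these comparisons, beside 0.010, -0.0038 and 0.0064 over all genes. The intervals given with the genes show which differences stay possible, since a p that misses the threshold does not show that levels were alike. The comparisons with Control share the Control libraries.

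**Figure D2:**
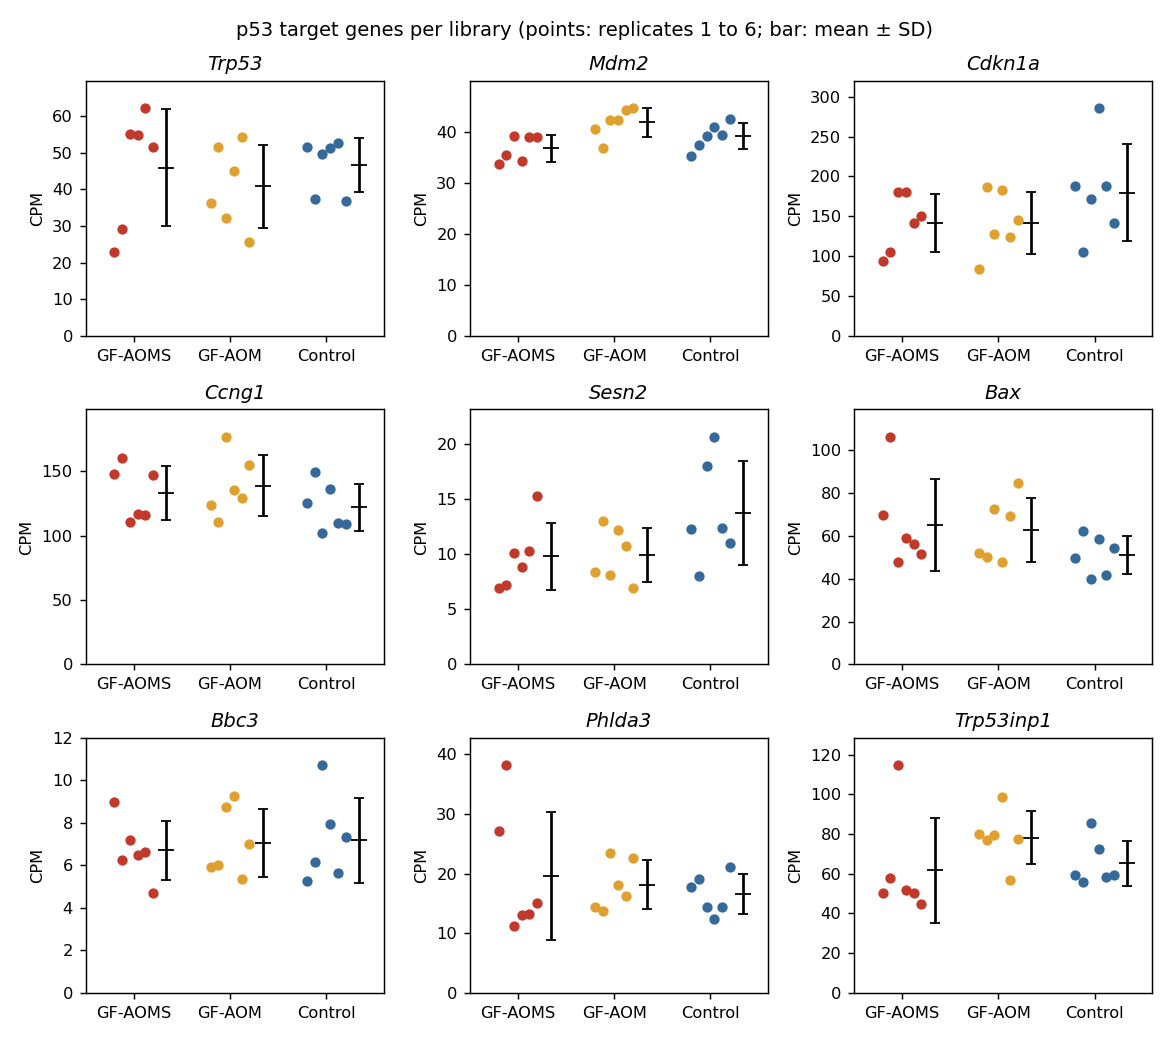
CPM of each gene in every library, with groups GF-AOMS, GF-AOM and Control from left to right, points for replicates 1 to 6 and a black bar for mean ± SD (n = 6). The groups overlap for all 9 genes, and Mdm2 has the lowest coefficient of variation in CPM, 8.44%.

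Trp53 and its regulator Mdm2 come first. Trp53 (ENSMUSG00000059552, chromosome 11, 69580359 to 69591873) ran from 23 to 62.1 CPM in GF-AOMS (median 53.2), from 25.8 to 54.3 CPM in GF-AOM (median 40.7) and from 37 to 52.8 CPM in Control (median 50.5). The GF-AOMS libraries divided, where replicates 1 and 2 had 23 and 29.2 CPM and replicates 3 to 6 between 51.7 and 62.1 CPM. Replicates 1 and 2 are also the GF-AOMS libraries with TMM factors under 0.9, and the part of library composition in their level was not tested. The log2 difference was 0.17 with smoke (SE 0.23, 95% interval -0.32 to 0.66; 0.065 without GF-AOMS replicate 5), -0.19 in GF-AOM against Control (SE 0.23) and -0.020 in GF-AOMS against Control (SE 0.23).

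Mdm2 (ENSMUSG00000020184, chromosome 10, 117688875 to 117710758) had the lowest relative spread of the 9 genes in CPM, with a coefficient of variation of 8.44% over the 18 libraries. In FPKM its coefficient was 14.9%, above those of Ccng1 (9.88%) and Bax (13.3%). It lay at 33.6, 35.4, 39.2, 34.2, 39 and 39 CPM in GF-AOMS replicates 1 to 6. In GF-AOM replicates 1 to 6 it lay at 40.6, 36.8, 42.3, 42.4, 44.2 and 44.6 CPM. Control libraries ran from 35.2 to 42.5 CPM (median 39.3). All 6 GF-AOMS libraries lay below the GF-AOM mean of 41.8 CPM (SD 2.86), although the groups overlapped through GF-AOM replicate 2. The log2 difference with smoke was -0.19 (SE 0.079, 95% interval -0.36 to -0.019), with an unadjusted p of 0.0291 and an adjusted p of 1.00 by edgeR's quasi-likelihood test, so it did not pass. Over all alternatives it stayed between -0.22 and -0.12. Against Control, Mdm2 was at 0.097 (SE 0.079) in GF-AOM and -0.090 (SE 0.079) in GF-AOMS.

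The arrest genes begin with Cdkn1a (ENSMUSG00000023067, chromosome 17, 29090976 to 29100727), whose product p21 blocks cyclin-dependent kinases. It ran from 94.5 to 180.7 CPM in GF-AOMS (median 145.5), from 84.5 to 186.8 CPM in GF-AOM (median 137) and from 105.3 to 285.3 CPM in Control (median 179.4). The highest library of all was Control replicate 4 and the lowest GF-AOM replicate 1. With smoke the log2 difference was -0.0016 (SE 0.23, 95% interval -0.50 to 0.49). It was -0.34 (SE 0.23) both in GF-AOM and in GF-AOMS against Control, with adjusted p of 0.427 and 0.459 by edgeR. When the model also held a colon position term, which contrasts the 4 libraries low in Hoxa13 with the rest, these differences were -0.043 and -0.045. All 4 are Control libraries, so with this term every difference from Control rests on Control replicates 1 and 2. Without Control replicate 4 alone the Cdkn1a differences were -0.16 in both.

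Ccng1 (ENSMUSG00000020326, chromosome 11, 40748552 to 40755311) encodes cyclin G1, which recruits a phosphatase to Mdm2. It ran from 111 to 160.3 CPM in GF-AOMS, from 110.9 to 176.9 CPM in GF-AOM and from 102.4 to 149.6 CPM in Control. Its log2 differences were -0.058 with smoke, 0.18 in GF-AOM against Control and 0.12 in GF-AOMS against Control (SE 0.13 each). The 3 groups overlapped over most of their range.

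Sesn2 (ENSMUSG00000028893, chromosome 4, 132492032 to 132510501) encodes sestrin 2, a stress-induced inhibitor of mTORC1 signalling. It lay at 6.96, 7.23, 10.1, 8.82, 10.3 and 15.3 CPM in GF-AOMS replicates 1 to 6. In GF-AOM replicates 1 to 6 it lay at 8.35, 13, 8.06, 12.2, 10.7 and 6.97 CPM. Control replicates 1 and 2 were at 12.3 and 7.99 CPM, and Control replicates 3 to 6, the libraries low in Hoxa13, at 18, 20.6, 12.4 and 11 CPM. All 6 GF-AOM libraries and 5 of 6 GF-AOMS libraries lay below the Control mean of 13.7 CPM (SD 4.69), with overlap between groups. The log2 difference was -0.47 in GF-AOM against Control (SE 0.24, 95% interval -0.98 to 0.039, adjusted p = 0.335 by edgeR) and -0.49 in GF-AOMS against Control (SE 0.24, upper 95% bound 0.023, adjusted p = 0.322 by edgeR). With the colon position term these were -0.037 and -0.052, and without the 4 libraries low in Hoxa13 -0.038 and -0.048. Both settings rest the Control level on replicates 1 and 2, so they are not separate checks. With smoke the difference was -0.015 (SE 0.24).

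The remaining genes act in apoptosis or stress signalling. Bax (ENSMUSG00000003873, chromosome 7, 45461697 to 45466898), whose product permeabilises the outer mitochondrial membrane, ran from 47.6 to 106.2 CPM in GF-AOMS (median 57.6), from 47.7 to 84.9 CPM in GF-AOM (median 60.6) and from 40.1 to 62.3 CPM in Control (median 52.1). GF-AOMS replicate 2 was the highest library and Control replicate 3 the lowest. The log2 difference was 0.050 with smoke (SE 0.19), 0.29 in GF-AOM against Control (SE 0.19, adjusted p = 0.414 by edgeR) and 0.34 in GF-AOMS against Control (SE 0.19, 95% interval -0.069 to 0.76, adjusted p = 0.377). Without GF-AOMS replicate 2 the difference in GF-AOMS against Control was 0.16. With the length slope as a term of the model, the comparisons with Control gave -0.042 and 0.023.

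Bbc3 (ENSMUSG00000002083, chromosome 7, 16308393 to 16318205) encodes PUMA, a BH3-only activator of Bax. With 221 to 599 counts per library it was the gene with the fewest counts at its lowest library. It ran from 4.7 to 8.99 CPM in GF-AOMS, from 5.35 to 9.27 CPM in GF-AOM and from 5.27 to 10.7 CPM in Control. Its log2 differences were -0.070, -0.027 and -0.097 with smoke, in GF-AOM against Control and in GF-AOMS against Control (SE 0.20 each).

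Phlda3 (ENSMUSG00000041801, chromosome 1, 135766119 to 135769136) encodes a membrane-binding protein that restrains Akt. GF-AOMS replicates 1 and 2 had 27.1 and 38.2 CPM and replicates 3 to 6 between 11.3 and 15 CPM, the reverse of Trp53 in the same libraries. The summed level of 15 stromal markers was 7312 and 11270 CPM in replicates 1 and 2 and 2634 to 3890 CPM in replicates 3 to 6 (3871 to 5991 CPM in GF-AOM, 2284 to 5303 CPM in Control), none of them at 0 in any library, and its part in the Phlda3 level was not tested. GF-AOM ran from 13.8 to 23.4 CPM and Control from 12.5 to 21.2 CPM. The log2 difference with smoke was 0.12 (SE 0.27). Without the 5 libraries with a TMM factor under 0.9 it was -0.26. Against Control it was 0.13 in GF-AOM and 0.25 in GF-AOMS (SE 0.27 each).

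Trp53inp1 (ENSMUSG00000028211, chromosome 4, 11156431 to 11174379) encodes a stress-induced nuclear protein that promotes p53 activity. It lay at 44.9 to 57.9 CPM in 5 GF-AOMS libraries and at 114.6 CPM in GF-AOMS replicate 3. GF-AOM ran from 56.6 to 98.7 CPM (median 78.4) and Control from 56.1 to 85.5 CPM (median 59.5). In 5 of 6 GF-AOM libraries it was above the Control mean of 65.3 CPM (SD 11.5). The log2 difference with smoke was -0.34 (SE 0.20, 95% interval -0.77 to 0.088) with all libraries and -0.61 (SE 0.14, adjusted p = 0.886 by edgeR) without GF-AOMS replicate 3. It was 0.26 in GF-AOM against Control (SE 0.20) and -0.081 in GF-AOMS against Control (SE 0.20).

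**Figure D3:**
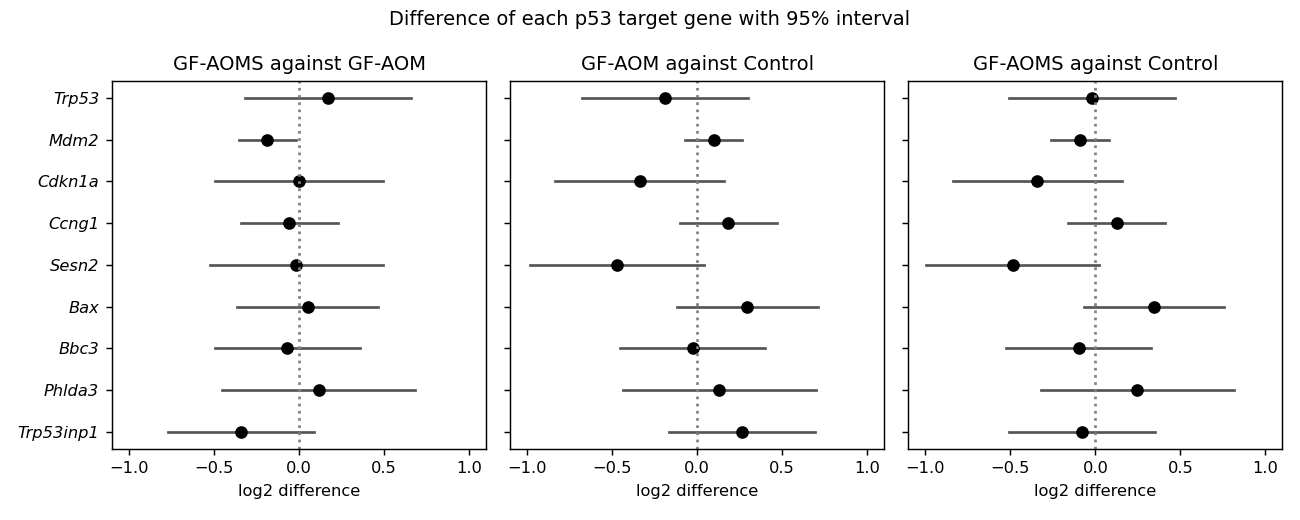
Log2 difference of each gene with its 95% interval in the 3 comparisons, first-named group minus second. Mdm2 with smoke, at -0.19, is the one interval that leaves out 0 before adjustment, and Sesn2 lies lowest against Control at -0.47 and -0.49.

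The genes varied across libraries in opposing sets. In GF-AOMS replicate 2, the library with the lowest length slope, Phlda3 (38.2 CPM) and Bax (106.2 CPM) were at their highest, while Trp53 (29.2 CPM) and Sesn2 (7.23 CPM) were near their lowest. In Control replicate 4, with a length slope of 0.14, Cdkn1a (285.3 CPM) and Sesn2 (20.6 CPM) were at their highest and Phlda3 (12.5 CPM) was low. The highest slope, 0.19, was that of Control replicate 5, where Cdkn1a was at 187.4 CPM and Sesn2 at 12.4 CPM. In that library Trp53 was at 52.8 CPM, Bax at 41.9 CPM and Phlda3 at 14.4 CPM. In a model with groups and length slope, the slope term passed for 6 of 9 genes, where it passed for 58% of all genes (30.2% higher, 27.8% lower), so the share among the p53 target genes was near that of the genome. Per SD of the slope, Trp53 was higher by 0.34 on the log2 scale (SE 0.075), Sesn2 by 0.33 (SE 0.082) and Cdkn1a by 0.27 (SE 0.088). Phlda3 stood at -0.42 (SE 0.065), Bax at -0.33 (SE 0.039) and Ccng1 at -0.16 (SE 0.045). The adjusted p of these 6 ran from 1.82e-06 to 0.0143 by edgeR's quasi-likelihood test. The slope was computed from the same counts, these genes among them, so these p-values are not independent evidence. Trp53inp1 (0.13, SE 0.087), Mdm2 (0.014, SE 0.033) and Bbc3 (0.011, SE 0.093) did not pass. Phlda3 and Bax are the shortest gene models of the 9, at 0.428 and 0.433 of the median length in the table, while Trp53, Sesn2, Cdkn1a and Ccng1 lie between 0.955 and 1.11. The genes that did not pass, Bbc3, Mdm2 and Trp53inp1, lie at 0.585, 1.4 and 1.78, so passing did not follow length alone. What the slope stands for in these libraries was not tested.

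**Figure D4:**
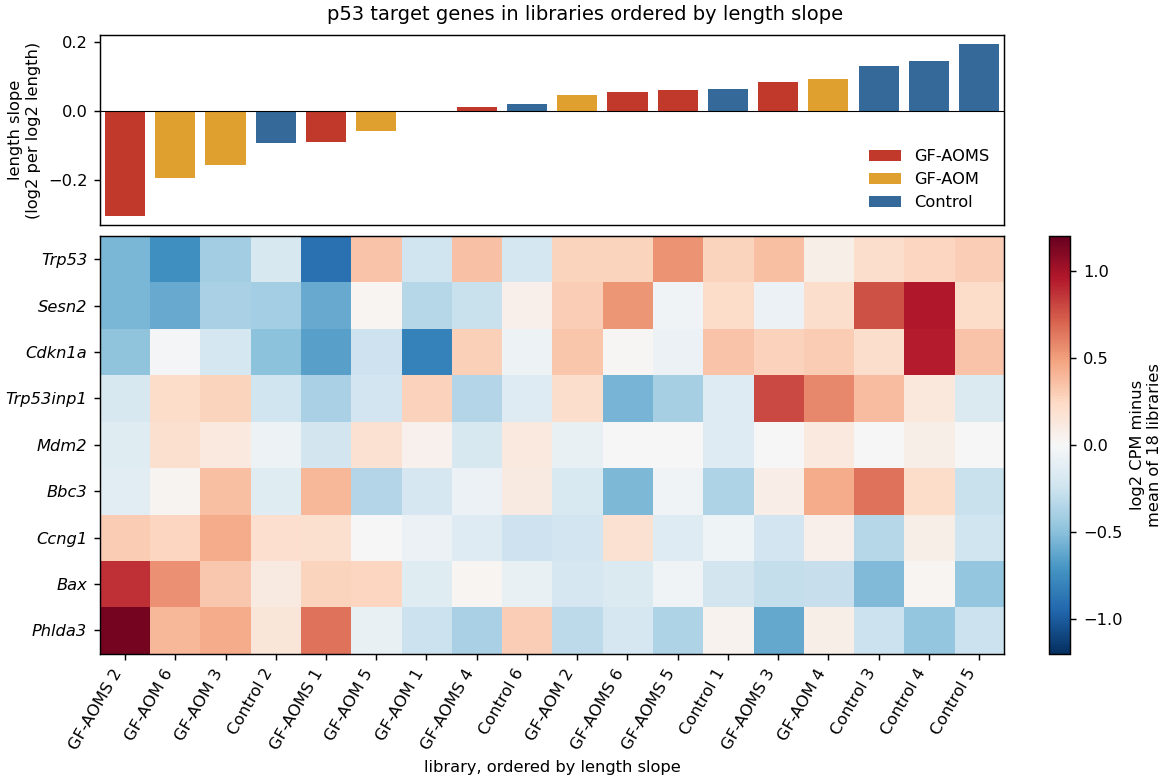
Length slope of each library as bars coloured by group (top) and, below, log2 CPM of each gene minus its mean over the 18 libraries, with libraries ordered by slope. Trp53, Sesn2 and Cdkn1a are mostly low at the left and Bax and Phlda3 high there, up to 106.2 and 38.2 CPM in GF-AOMS replicate 2.

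Likeness of pattern was measured as Pearson's r of log2 CPM over the 18 libraries, which share the differences in depth, composition and group described above. The r is a description, with no test. The 2 genes most like Bax were Psmb6 (0.99), a proteasome subunit, and Mrpl28 (0.98), a mitochondrial ribosomal protein. Those most like Trp53 were Ints4 (0.95), a subunit of the Integrator complex, and Lrrc47 (0.95). Phlda3 was most like Ddah2 (0.95) and the caveolar protein gene Cavin3 (0.94). Sesn2 was most like Rybp (0.93), a Polycomb component, and Zbtb43 (0.90). Cdkn1a was most like Ethe1 (0.93), a mitochondrial sulfur dioxygenase, and Elovl1 (0.92), a fatty acid elongase. Ccng1 was most like Atp5pb (0.88), an ATP synthase subunit, and Gid8 (0.88), Bbc3 like Stk38l (0.81) and Galnt11 (0.79), Trp53inp1 like the BH3-only gene Bmf (0.75) and Cyb561d1 (0.71), and Mdm2 like Cln8 (0.74) and Zfp626 (0.70). Among the 9 genes themselves, r was highest for Bax with Phlda3 (0.75), Ccng1 with Bax (0.75) and Cdkn1a with Sesn2 (0.75), and lowest for Phlda3 with Trp53 (-0.83).

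The wider p53 network was read from 7 lists holding 160 further genes, of which 124 were measured. A place on a list does not show that p53 controls the gene. By edgeR 0 were called with smoke, 0 in GF-AOM against Control and 1, a lower one, in GF-AOMS against Control, beside 0%, 0.00918% and 0.734% of all genes (0.624% lower). Before adjustment, p was under 0.05 for 0 higher and 0 lower network genes with smoke (all genes 0.633% and 0.459%). It was for 4 higher and 15 lower in GF-AOM against Control (all genes 5.98% and 9.74%) and for 5 higher and 14 lower in GF-AOMS against Control (6.93% and 9.25%). DESeq2 called 0, 5 (Pias4, Bid, Sesn3, Ercc5 and Cdkn2b) and 2 (Trp53inp2 and Cdkn2b). Of all 10897 genes DESeq2 called 3, 284 and 375. Without Control replicate 2 edgeR called 3 (Trp53inp2, Sesn3 and Cdkn2b) in GF-AOM against Control and 4 (Trp53inp2, Prkab1, Cdkn2b and Cdk6) in GF-AOMS against Control. Fits that each left out 1 library called 0 to 356 and 0 to 493 of all genes in these comparisons. The median log2 differences of the 124 network genes were 0.087 with smoke, -0.11 in GF-AOM against Control and 0.032 in GF-AOMS against Control. Over all genes they were 0.010, -0.0038 and 0.0064. The lists pool p53 targets, regulators and genes repressed through p21, so a common median gives no direction for p53. With smoke the list medians ran from -0.037 (other p53 targets for apoptosis) to 0.29 (cell cycle genes repressed through p21).

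The 1 called gene was Cdkn2b, which encodes the CDK4 and CDK6 inhibitor p15 and is known as a target of TGF-beta signalling. It averaged 19.8 CPM in GF-AOMS (SD 3.14, range 16.1 to 24.4) and 38.8 CPM in Control (SD 16.9, range 24.4 to 70.03), a log2 difference of -0.97 (SE 0.22, adjusted p = 0.0495 by edgeR's quasi-likelihood test, n = 6 each). The call was lost in 16 of 18 fits that each left out 1 library (adjusted p 0.0143 to 0.130 over the 18, log2 difference -1.07 to -0.71), and remained only without Control replicate 1 or Control replicate 2. It was lost with RLE scaling too (-0.96, adjusted p = 0.0525 by edgeR). Its difference was -0.97 in GF-AOM against Control too (SE 0.22, adjusted p = 0.0831), which did not pass. With the colon position term it was -0.40 (SE 0.26) in both comparisons and not called (adjusted p = 1.00 by edgeR). That term rests the Control level on replicates 1 and 2. In the same list of CDK inhibitors, D cyclins and RB genes, Cdk6 (-0.41, SE 0.15) and E2f5 (-0.26, SE 0.11) followed in GF-AOMS against Control, and Rb1 (-0.53, SE 0.20) and Cdk6 (-0.32, SE 0.15) in GF-AOM against Control. With smoke the smallest p belonged to Cdkn2c (0.18, SE 0.11), Cdkn1c (-0.32, SE 0.19) and Lin37 (0.18, SE 0.12).

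Among p53 family members and regulators, 17 of 27 were measured and 0 called. With smoke the smallest p belonged to the damage checkpoint kinase gene Chek2 (0.28, SE 0.14), Pias4 (0.24, SE 0.13), a SUMO ligase, and Mdm4 (-0.22, SE 0.14), the Mdm2 relative that inhibits p53. Against Control, GF-AOM had the smallest p for Pias4 (-0.44, SE 0.13), Mdm4 (0.39, SE 0.14) and the deacetylase gene Hdac1 (-0.34, SE 0.13). In GF-AOMS against Control they were Daxx (-0.25, SE 0.11), Chek2 (0.31, SE 0.14) and Hdac1 (-0.26, SE 0.13).

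The list of other p53 targets for arrest had 11 of 15 genes measured and 0 called. Above 0 were 3 of 11 in GF-AOMS against Control (51% of all genes), 4 in GF-AOM against Control (49.5%) and 5 with smoke (53.6%). In GF-AOMS against Control, Ccng2, for cyclin G2, stood at -0.67 (SE 0.20), Btg2, an antiproliferative gene, at -0.39 (SE 0.13) and Gadd45a, a damage-induced gene, at -0.35 (SE 0.14). GF-AOM against Control gave Plk3 at -0.49 (SE 0.18), with Btg2 at -0.31 (SE 0.13) and Ccng2 at -0.40 (SE 0.20). With smoke Ccng2 was at -0.27 (SE 0.20), Ptp4a3 at -0.15 and Gadd45a at -0.12.

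The list of other p53 targets for apoptosis had 14 of 20 genes measured and 0 called. Trp53inp2, an autophagy gene placed on this list, averaged 125.1 CPM in GF-AOMS libraries, against 181 CPM in Control libraries (-0.53, SE 0.14, adjusted p = 0.0953 by edgeR). Pmaip1, the gene for NOXA, was at -0.66 (SE 0.21) and Bid, for a BH3-only protein cleaved by caspase 8, at -0.41 (SE 0.14). In GF-AOM against Control these 3 genes were at -0.43, -0.61 and -0.53. With smoke the smallest p belonged to Igfbp3 (-0.87, SE 0.50), Trp53i11 (0.31, SE 0.20) and Dram1 (-0.17, SE 0.17).

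Cell cycle genes repressed through p21 and the DREAM complex had 28 of 30 genes measured and 0 called in any comparison. All 28 fitted differences with smoke were above 0, where 53.6% of all genes were, and none was called. Their median was 0.29 beside 0.010 over all genes, and leaving out any 1 library gave 27 or 28 above 0. The smallest p belonged to Kif23 (0.53, SE 0.26), Mybl2 (0.45, SE 0.24) and Aurkb (0.51, SE 0.28), all genes of mitosis or its transcription programme, beside a Cdkn1a difference of -0.0016. In GF-AOM against Control 3 of 28 were above 0 (median -0.22), led by Cdc25a (-0.30, SE 0.15), Ccnb2 (-0.35, SE 0.23) and Birc5 (0.33, SE 0.26), and 17 of 28 were with the length slope in the model. In GF-AOMS against Control 27 of 28 were above 0 (median 0.12), led by Birc5 (0.44, SE 0.26) and Cdc25a (-0.25, SE 0.15), and 14 of 28 were with the colon position term. Leaving out GF-AOMS replicate 3, the library highest in Trp53inp1, gave 13 of 28 above 0 (median -0.024) against Control and a median of 0.15 with smoke. Leaving out Control replicate 5 gave 9 of 28 (median -0.088) in GF-AOM against Control. Of all genes, 49.5% were above 0 in GF-AOM against Control and 51% in GF-AOMS against Control. The comparisons share libraries, so these counts are not independent of each other. Genes of this list may also vary together, so a count of them is not a count of separate observations.

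**Figure D5:**
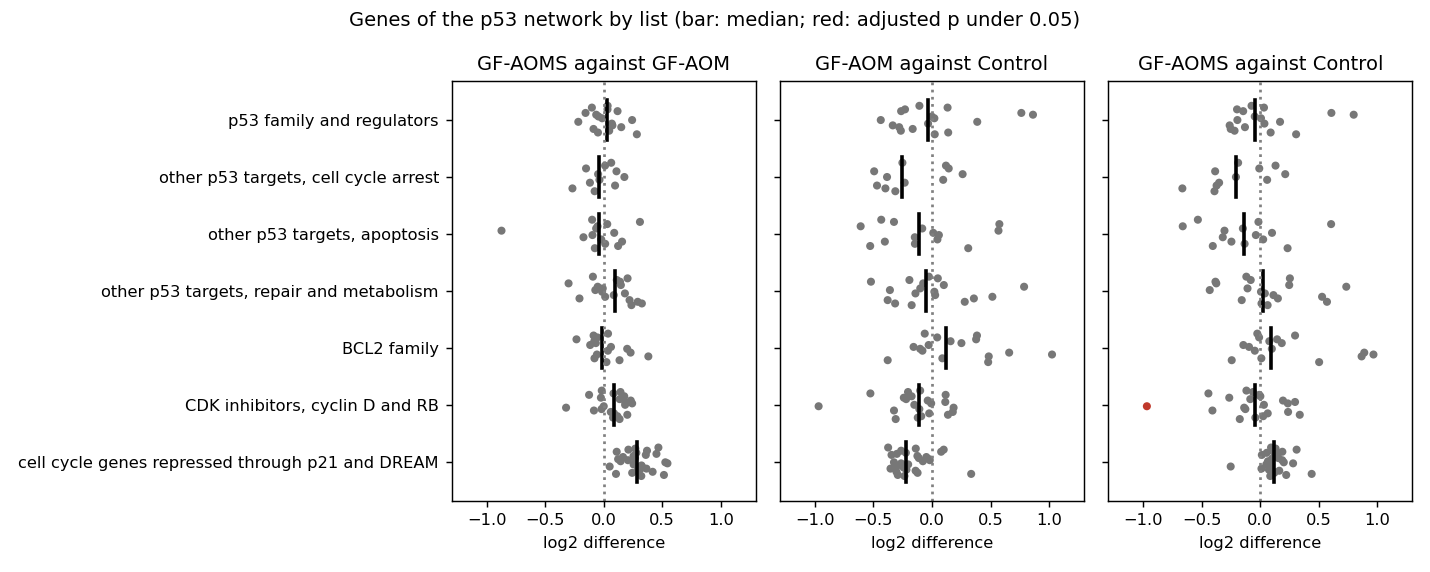
Log2 difference of each measured gene of the 7 p53 network lists in the 3 comparisons, first-named group minus second, with a black bar at the list median and red for an adjusted p under 0.05. Cdkn2b in GF-AOMS against Control, at -0.97, is the single red point, and the p21 and DREAM list lies above 0 with smoke (median 0.29).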

How the data were processed

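Ribosomal RNA was depleted from total RNA, and libraries kept strand information, per the labels' protocols. The submitters' processing notes name featureCounts, DESeq2 and build GRCm39, with no versions; the aligner is not given in these sources. The authors deposited raw read counts and FPKM per gene and library in a table, per the file headers. Its positions lie at gene bounds of build GRCm38 (GENCODE M21), in which coordinates are given.

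Counts were fitted with edgeR 4.0.16 in R 4.3.3 (TMM scaling, 15 residual degrees of freedom, quasi-likelihood test in both directions). Standard errors are the difference over the root of F, and intervals use 15 degrees of freedom. Alternatives used DESeq2 1.42.0, limma 3.58.1 on log2(FPKM + 1), other scalings and filters, a replicate block, colon position, length slope, and fewer libraries. Code was checked on simulated data. Every p53 target gene in the table is named, with the 3 smallest p per network list and comparison, all calls, and the 2 genes of highest r; 1 gene that this rule names is not reported here. Members and lists were chosen with earlier results of these data known. The test of the length slope itself was chosen after library values were seen. Gene lengths come from the ratio of counts to FPKM.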

Additional observations from a re-analysis of the deposited data

Results flagged for a closer look

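Of 27 sets of 6 libraries (9 genes in 3 groups), 1 held a library far from the others by Dixon's test, where chance gives about 1 in 20. Trp53inp1 was at 114.6 CPM in GF-AOMS replicate 3, against 44.9 to 57.9 CPM in the other 5 GF-AOMS libraries. The gap was 0.813 of the group's range and exceeded the critical value for 6 libraries.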

How the results depend on the processing

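No p53 target gene was called under any of 13 alternatives or in 18 fits that each left out 1 library; the lowest adjusted p was 0.121 (Sesn2, GF-AOMS against Control, without Control replicate 2). Of the 27 log2 differences, none past the threshold, 39 values changed sign under the 13 alternatives and 33 when 1 library was left out; the cause was not tested. Sesn2 and Bbc3 gave no value under the filter of at least 5 FPKM in 6 libraries.

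With smoke, Cdkn1a was 0.0017 with DESeq2 and with RLE scaling, 0.0024 with the FPKM filter, 0.0020 with only the 2 groups compared and without the libraries low in Hoxa13, 0.034 with limma at either pseudocount, 0.059 with library totals and 0.16 without the libraries with a TMM factor under 0.9. Sesn2 was 0.0051 with limma on log2(FPKM + 1) and 0.026 with library totals. Without the libraries with a low TMM factor, Bax was -0.043 and Phlda3 -0.26.

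In GF-AOM against Control, Bbc3 was 0.026 with upper quartile scaling and 0.30 with the position term or without the libraries low in Hoxa13. Phlda3 was -0.023 with the position term, -0.27 with the length slope, and -0.026 without the libraries low in Hoxa13 or with a low TMM factor. With the length slope Bax was -0.042 and Trp53 0.12. In GF-AOMS against Control, the position term gave Mdm2 0.017, Ccng1 -0.045, Trp53inp1 0.095, Bbc3 0.23 and Trp53 0.046, and leaving out the libraries low in Hoxa13 gave 0.018, -0.044, 0.093, 0.23 and 0.048 for these genes. The length slope gave Ccng1 -0.015, Phlda3 -0.22, Trp53inp1 0.022 and Trp53 0.22. Without low TMM factors Phlda3 was -0.28 and Trp53 0.21, and with upper quartile scaling Trp53 was 0.030.

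Leaving out 1 library gave, with smoke, Trp53 0.065 to 0.31, Cdkn1a -0.12 to 0.092, Ccng1 -0.12 to 0.026, Bax -0.15 to 0.16, Phlda3 -0.18 to 0.24, Sesn2 -0.19 to 0.078 and Bbc3 -0.17 to 0.024. In GF-AOM against Control it gave Bbc3 -0.12 to 0.12 and Cdkn1a -0.45 to -0.16. In GF-AOMS against Control it gave Cdkn1a -0.46 to -0.16, Bax 0.16 to 0.42, Phlda3 -0.046 to 0.37, Trp53inp1 -0.35 to 0.012, Bbc3 -0.20 to 0.052 and Trp53 -0.12 to 0.12.

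Counts over all genes moved. With smoke 0 genes were called, against 3 with DESeq2, 2 with the length slope and 1 without low TMM factors. In GF-AOM against Control 1 was called, against 284 with DESeq2, 132 without low TMM factors, 2 with the replicate block, 0 with limma, library totals or only the 2 groups, and 0 to 356 without 1 library. In GF-AOMS against Control 80 were called, against 375 with DESeq2, 277 without low TMM factors, 47 with upper quartile scaling, 33 with the replicate block, 28 with library totals, 17 and 16 with limma, 6 with the length slope, 0 with only the 2 groups, the position term or without the libraries low in Hoxa13, and 0 to 493 without 1 library.

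Network genes called in GF-AOM against Control numbered 5 with DESeq2, 1 without low TMM factors and 0 to 3 without 1 library. In GF-AOMS against Control they numbered 2 with DESeq2 or without low TMM factors, 0 to 4 without 1 library, and 0 with limma, RLE, library total or upper quartile scaling, the replicate block, only the 2 groups, the position term, the length slope or without the libraries low in Hoxa13. Deviations of same-numbered libraries gave 7 of 18 correlations over 0.1 (range -0.62 to 0.52). These mixed values cannot show whether the numbers pair libraries, which the labels do not state. The replicate block changed no call of a p53 target gene.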

Other observations

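The BCL2 family, whose members promote or block mitochondrial apoptosis, had 16 of 18 genes measured and 0 called. Bcl2a1b, for an antiapoptotic protein of blood cells, averaged 13.4 CPM in GF-AOMS and 6.82 CPM in Control (log2 difference 0.97, SE 0.45), and 13.9 CPM in GF-AOM (1.03 against Control, SE 0.45). Bcl2a1d was at 0.89 (SE 0.50) in GF-AOMS against Control. These genes are near-identical copies, so counts may be split between them. The summed level of 16 immune markers was 2693 to 9282 CPM in GF-AOMS, 4279 to 8778 CPM in GF-AOM and 1108 to 5699 CPM in Control, and its part in the values was not tested. Bad, a BH3-only gene, was at 0.50 (SE 0.27) in GF-AOMS and 0.48 (SE 0.27) in GF-AOM against Control, and the effector gene Bak1 at -0.38 (SE 0.18) in GF-AOM against Control. With smoke Bcl2l12 was at 0.20 (SE 0.14), Bcl2l2 at -0.12 and Bnip3 at -0.23.

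The list of p53 targets for repair and metabolism had 18 of 26 genes measured and 0 called. Sesn3, a relative of Sesn2 placed on this list, averaged 26.3 CPM in GF-AOMS, 23.9 CPM in GF-AOM and 34.3 CPM in Control. Its log2 differences were -0.38 (SE 0.13) and -0.52 (SE 0.13) for GF-AOMS and GF-AOM against Control. Prkab1, an AMPK subunit gene, was at -0.43 (SE 0.15) and -0.36 (SE 0.15) in the same comparisons. The DNA repair gene Ddb2 was at 0.57 (SE 0.21) in GF-AOMS and 0.28 (SE 0.21) in GF-AOM against Control, and Ercc5 at 0.15 (SE 0.10) and 0.36 (SE 0.10). With smoke Ercc5 was at -0.21 (SE 0.10), Aldh4a1 at 0.24 (SE 0.12) and Ddb2 at 0.29 (SE 0.21).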
